A study of Caenorhabditis elegans with 3 samples.

Results

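The CCT chaperonin is the folding machine of the eukaryotic cytosol, and the 8 genes cct-1 to cct-8 encode its subunits in Caenorhabditis elegans. They were taken by name, all 8 were found among 19973 nuclear protein-coding genes, and each was searched for sites of a tagged zinc finger protein. Chromatin immunoprecipitation with sequencing was done on whole worms of strain OP682, of pooled sex, at the L4 larval stage (48 hours, synchronised as starved L1 larvae after bleaching). All worms carried the unc-119(tm4063) mutation and the integrated transgene wgIs682, which holds Y5F2A.4 fused to TY1, EGFP and 3xFLAG tags and a wild-type unc-119 copy. The labels name neither the promoter that drives the fusion nor a mutation of the endogenous Y5F2A.4 gene. There are 3 libraries in 1 group, 2 of them technical libraries of biological replicate 1 and the other of replicate 2, so no condition is compared. Worms without the tag and the control reads were not analysed here.

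CCT is built of a pair of stacked rings, each made of all the different subunits, and closes around an unfolded chain with energy from ATP. Actin and tubulin are its best known substrates, and prefoldin hands such chains to it. Each subunit is a separate gene product with its own place in the ring: alpha (cct-1), beta (cct-2), gamma (cct-3), delta (cct-4), epsilon (cct-5), zeta (cct-6), eta (cct-7) and theta (cct-8). In C. elegans the annotated 5′ end of a gene often marks a site where a leader RNA is spliced on, so transcription can begin further upstream.

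A gene was called bound when a summit, the highest point of a region, of the authors' thresholded list lay from 1000 bp upstream to 200 bp downstream of its annotated 5′ end. Of the 8 genes, cct-8 and cct-1 were bound. Across all protein-coding genes the share was 1.46%. In the unthresholded candidate lists cct-7 also had a summit there, and cct-2, cct-3, cct-4, cct-5 and cct-6 had no summit of any list in the window. With 8 genes and no depth per region, an empty window means that no summit was listed there, not that a site is absent. Combined candidate regions with summits outside did reach into the windows of cct-2 and cct-4.

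The sequences under the combined-list summits in the 5′ windows of cct-8, cct-1 and cct-7 are shown, the strongest in each window, because the 5′ results turn on them. Those of cct-8 and cct-1 are thresholded and that of cct-7 is not. Each runs 5′ to 3′ on the coding strand of the CCT gene, from 75 bases before the summit to 75 bases after it, in the RefSeq sequence of WBcel235. The central 11 bases in capitals hold the summit, and a further run of 8 capitals marks a match to the heat shock element letters GAANNTTC.
cct-8, chrIV:1094288-1094438, minus strand: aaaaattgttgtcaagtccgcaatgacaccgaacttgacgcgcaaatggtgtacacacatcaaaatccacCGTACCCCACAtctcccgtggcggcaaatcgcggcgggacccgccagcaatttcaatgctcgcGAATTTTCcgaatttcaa
cct-1, chrII:8185118-8185268, plus strand: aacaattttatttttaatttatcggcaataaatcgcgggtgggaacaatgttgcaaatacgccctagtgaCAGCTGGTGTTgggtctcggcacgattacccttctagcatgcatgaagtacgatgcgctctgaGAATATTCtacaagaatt
cct-7, chrV:1871892-1872042, plus strand, below the authors' threshold: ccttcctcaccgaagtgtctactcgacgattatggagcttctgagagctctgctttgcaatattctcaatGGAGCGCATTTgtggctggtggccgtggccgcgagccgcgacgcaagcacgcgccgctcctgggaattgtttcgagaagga

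The cct-8 and cct-1 sequences had 50.3% and 41.7% G and C, and the cct-7 sequence had 57%. The median over the same stretch at all 620 nuclear thresholded summits was 46.4%.

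The strongest site lay upstream of cct-8, the theta subunit gene (WBGene00021934, Y55F3AR.3, IV, 1087108 to 1093920, minus strand, ce11). The thresholded region ran from 1094289 to 1094440, only 152 bp wide, and its summit was at -443 bp, where negative values are upstream. Its signal, a peak score of the authors whose unit is not stated, was 223 in the combined and thresholded lists, 103 in replicate 1 and 117 in replicate 2. Scores of separately scored lists cannot be set against each other, but ranks within a list can be read side by side. By signal this region was at rank 72 of 28426 nuclear candidates in the combined list, rank 78 of 29984 in replicate 1 and rank 82 of 23398 in replicate 2. It therefore stood in the top 0.26% and 0.35% of the replicate lists. The replicate summits, at -443 and -481 bp, were 38 bp apart.

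The cct-8 summit lay between genes. On the other strand, Y55F3AR.2, annotated with a thioredoxin domain, starts 621 bp upstream of cct-8 and points away from it. The summit was at -178 bp from Y55F3AR.2, closer than to cct-8. The ncRNA gene Y55F3AR.4 (1094087 to 1094209, plus strand) lies between the summit and cct-8, its body ending 154 bp from the summit. Which of these 3 genes the site serves was not tested.

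The second site lay upstream of cct-1, the alpha subunit gene (WBGene00000377, T05C12.7, II, 8185443 to 8187601, plus strand). Its thresholded region, 8185005 to 8185380, had the 376 bp width shared by 553 of the 635 regions, and the summit was at -250 bp. Signal was 125 in the combined list, 52.2 in replicate 1 and 64 in replicate 2. The ranks were 354, 557 and 515, and the replicate summits, at -272 and -260 bp, were 12 bp apart. Among thresholded nuclear regions cct-1 was thus in the weaker part of the list, while cct-8 was near its top. Replicate 1 held a further, very weak candidate at -65 bp (signal 14.6, rank 29805) with no counterpart in replicate 2.

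This site too lay between genes that point away from each other. The neighbour was mig-5, which encodes a Dishevelled protein of Wnt signalling and starts 420 bp upstream of cct-1. The summit was at -170 bp from mig-5 and again nearer to the neighbour than to the CCT gene. No non-coding gene lay within 200 bp of it. If a summit counted for the closest gene start alone, 0 of the 8 genes were bound, and 0.701% of all protein-coding genes were. Each replicate's own 620 strongest nuclear regions held both the cct-8 and the cct-1 site.

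The cct-7 gene, for the eta subunit (WBGene00020391, V, 1872246 to 1875505, plus strand), had a site below the threshold. In the combined list the summit was at -279 bp with a signal of 76.5 (rank 1381), against 100.5 for the weakest thresholded region. The strongest candidate in the window was at -411 bp in replicate 1 (signal 34.5, rank 2466) and at -284 bp in replicate 2 (signal 49.5, rank 1135). These replicate summits were 127 bp apart, further than at cct-8 and cct-1, and need not be the same site. The summit of the combined list lay 13 bp from the start of the ncRNA gene T10B5.13 and outside protein-coding genes. On the other strand T10B5.4 starts 439 bp upstream of cct-7, and this summit was nearer to that start than to cct-7. The replicate 1 summit was at -28 bp from T10B5.4. A second, weaker candidate at -872 bp (signal 39.3, rank 14346) lay in a coding exon of T10B5.4.

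**Figure D1:**
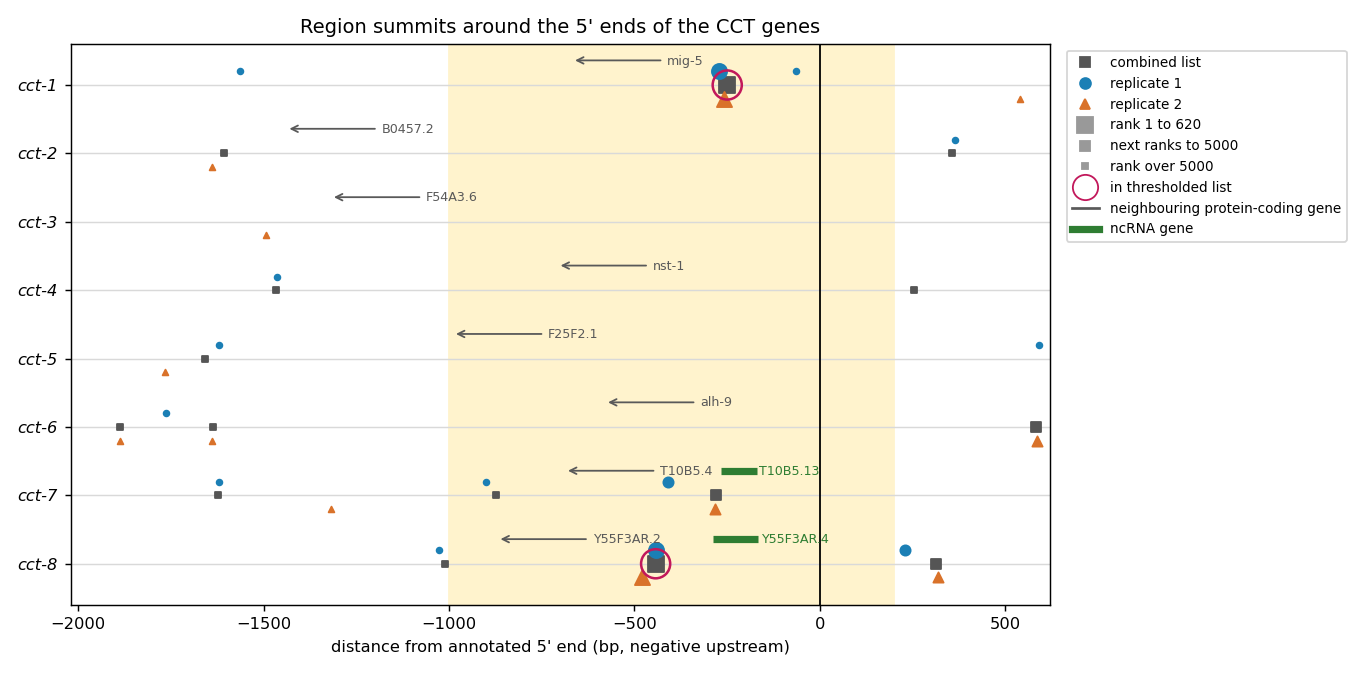
Summits of the deposited lists by distance in bp from the annotated 5′ end of each CCT gene (vertical line), with the searched window shaded. Grey squares are the combined list, blue circles replicate 1 and orange triangles replicate 2, larger for stronger ranks, and rings mark the thresholded list. Arrows of fixed length start at the 5′ end of the upstream neighbour. Only cct-1 and cct-8 have a ringed summit, at -250 and -443 bp, and 5 of the 8 windows hold no summit.

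Among the other 5 subunit genes, cct-2 (beta) and cct-3 (gamma) had the longest upstream stretches, 1190 bp to B0457.2 and 1070 bp to F54A3.6. The stretches of cct-4 (delta), cct-5 (epsilon) and cct-6 (zeta) were 459 bp to nst-1, a nucleostemin homolog, 741 bp to F25F2.1 and 331 bp to alh-9, an aldehyde dehydrogenase gene. The stretches of cct-1, cct-7 and cct-8 were 420, 439 and 621 bp. All 8 genes had their nearest upstream protein-coding neighbour on the other strand, pointing away. The share of all genes with this at any distance was not counted. At 6 of the 8 that neighbour also began within 1000 bp, an arrangement found at 17.5% of all protein-coding genes. Of the 6 such CCT genes 2 were bound, and of all 3503 genes with it 2.63% were.

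Close to the window's edges, the outermost summit inside was the cct-7 candidate at -872 bp in the combined list, or -901 bp in replicate 1. Just outside lay a combined candidate of cct-4 at 253 bp (signal 30.8, rank 25537) and one of cct-8 at -1011 bp (signal 33.5, rank 21355). Another cct-8 candidate, in its coding sequence at 312 bp, was stronger (signal 70.6, rank 1857), with ranks of 1510 in replicate 1 at 230 bp and 4546 in replicate 2 at 317 bp. Candidates alone say little, since 30.4% of protein-coding genes had one in the window in the combined list, against 3 of the 8 CCT genes. A candidate in both replicate lists, not necessarily at the same place, was found at 14.9% of protein-coding genes, and at cct-1, cct-7 and cct-8.

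No thresholded summit lay inside the body of any CCT gene. The combined list had candidates in all 8 bodies, from 1 in cct-1 to 9 in cct-3, which at 10000 bp is the longest gene. The strongest of these was in cct-6 at 2131 bp (signal 83, rank 1077), in its 3′ UTR. Next came an intron of cct-5 at 3611 bp (signal 78.9, rank 1254). There the candidate nearest in place was at 3570 bp in both replicates, with ranks of 1174 in replicate 1 and 15901 in replicate 2. Replicate 2 had a stronger candidate at 3773 bp (rank 2982). The 9 candidates in cct-3 had ranks no better than 6349.

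Thresholded summits also lay at the 3′ ends of 3 genes that had none in the 5′ window, of which cct-7 had the weaker candidates described above. This zone, from 200 bp inside to 500 bp past the annotated 3′ end, was chosen after the summits had been seen. It held thresholded summits of cct-2, cct-6 and cct-7, against 1.21% of all protein-coding genes. The cct-7 summit was the strongest, 204 bp past the gene, with a signal of 166 and rank 164 in the combined list. Its signal was 90.7 in replicate 1 (rank 110) and 72.3 in replicate 2 (rank 360), with summits 52 bp apart. It lay in the 3′ UTR of zig-11, which is read from the other strand and overlaps the end of cct-7. No protein-coding promoter window held it.

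The cct-6 summit was 173 bp past the gene and at -88 bp from ddx-23, an RNA helicase gene on the same strand. It had a signal of 112 and rank 481 in the combined list, with a signal of 44.5 (rank 953) in replicate 1 and 67.4 (rank 444) in replicate 2. The cct-2 summit was 49 bp past the gene and 23 bp inside mrpl-50, a mitochondrial ribosomal protein gene that starts 26 bp after cct-2 ends. Its signal of 109 gave rank 513 in the combined list, but the replicates differed, with a signal of 30.2 (rank 4196) in replicate 1 and 80.8 (rank 273) in replicate 2. Both sites were therefore also at the start of the next gene, and which gene they belong to was not tested. In C. elegans closely spaced genes on a strand are often transcribed together as operons, which the annotation used does not mark.

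Below the threshold, the strongest candidate past cct-5 was 432 bp beyond its end, in an intron of atf-7, with a signal of 95.7 and rank 711. The nearest gene start, that of the protein-coding gene C07G2.5, was 282 bp from this summit. Another candidate, 219 bp past cct-5 (signal 59.2, rank 3555), lay 76 bp downstream of the atf-7 start and 69 bp downstream of the C07G2.5 start. Which gene these candidates belong to was not tested. The strongest candidates of the zone had rank 511 in replicate 1 and 1261 in replicate 2, with summits 233 bp apart. Candidates at the ends of cct-1, cct-3 and cct-4 were weaker, at ranks 9146, 7289 and 3417 in the combined list. At cct-8 the zone held only a replicate 2 candidate at rank 20521. In all, 7 of the 8 genes had a combined candidate in the zone, against 26.2% of protein-coding genes, and 6 had a candidate in both replicate lists, against 12.8%. The 2 replicate candidates need not be the same site. Their strongest summits were 373 bp apart at cct-4 and 154 bp apart at cct-1, where replicate 1 had rank 27288 of 29984. At cct-2, cct-6 and cct-7 they were 57, 81 and 52 bp apart. The 620 strongest nuclear regions of replicate 1 alone, without replicate 2, gave 2 genes, cct-5 and cct-7, against 1.39% of all genes. The cct-2 and cct-6 sites were not among them. Counting both ends, 5 of the 8 genes had a thresholded summit, against 2.55% of protein-coding genes, a share that also includes the zone picked after the summits were seen.

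**Figure D2:**
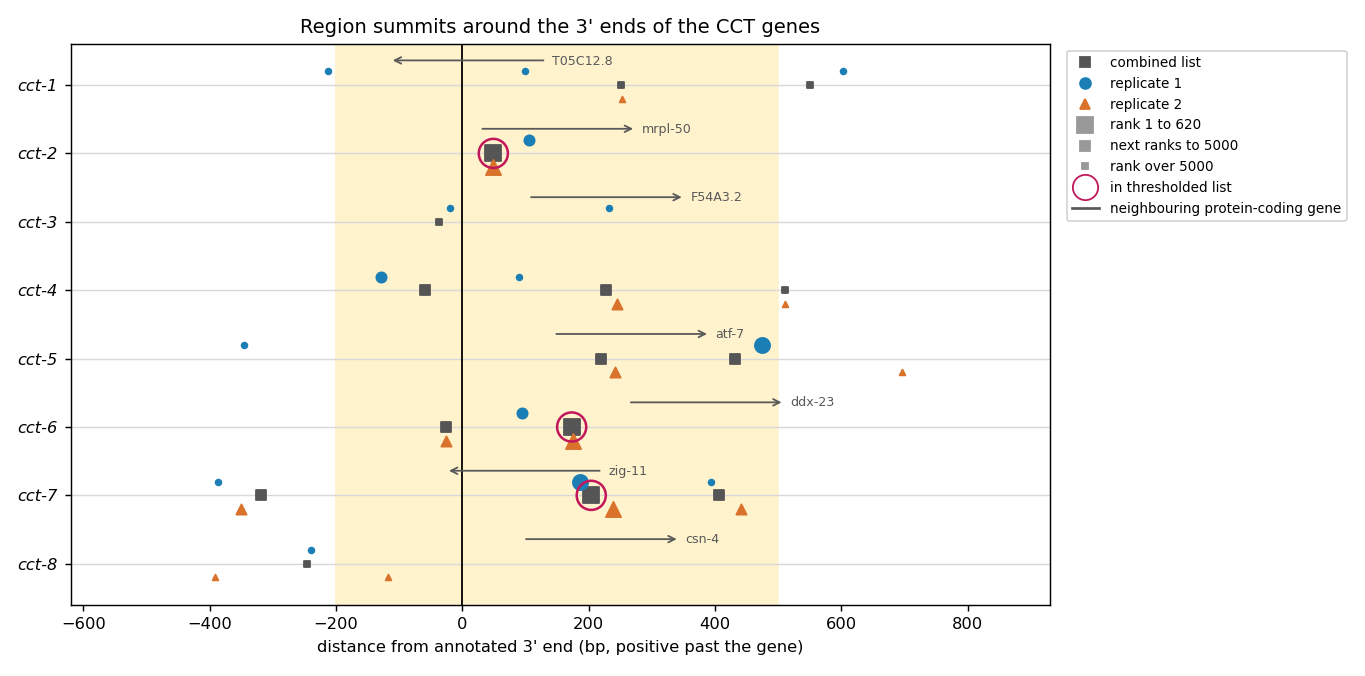
Summits by distance in bp from the annotated 3′ end of each CCT gene (vertical line), with the zone from 200 bp inside to 500 bp past the end shaded. Symbols are as in the map of 5′ ends, and arrows show the direction of the downstream neighbour, drawn at a fixed length from its edge nearest to the CCT gene. Rings mark the thresholded summits past cct-2, cct-6 and cct-7, at 49, 173 and 204 bp.

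**Figure D3:**
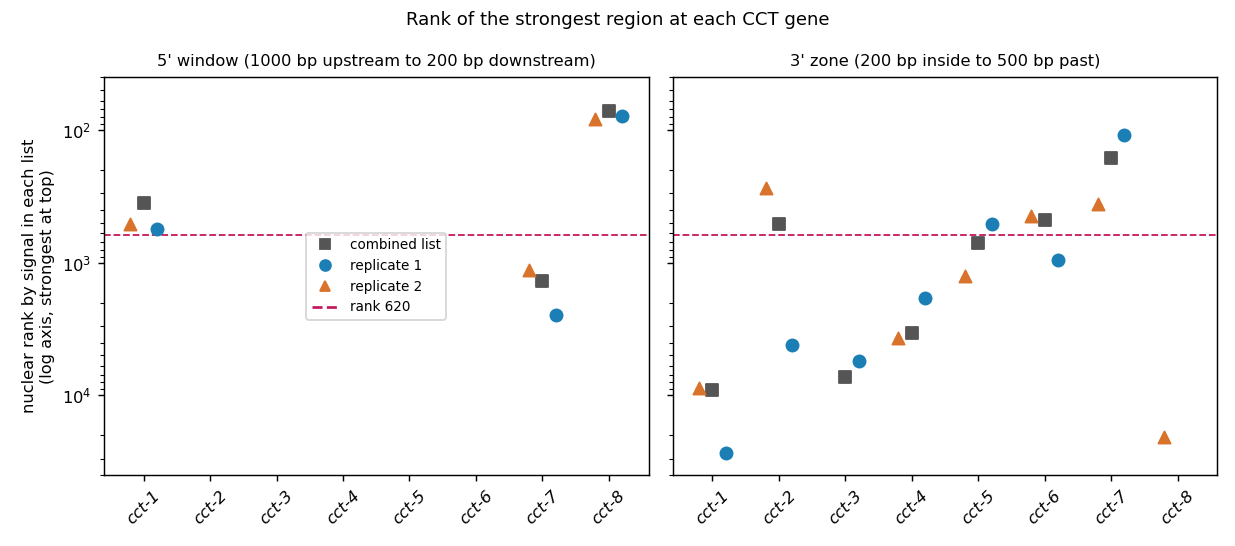
Rank by signal among nuclear regions (log axis, strongest at the top) of the strongest region in the 5′ window and in the 3′ zone of each CCT gene, in the combined list and in each replicate. The dashed line is at rank 620, the number of nuclear thresholded regions. In the 5′ windows the replicate ranks lie close together for cct-8 (78 and 82) and cct-1 (557 and 515). At the 3′ end of cct-2 they lie far apart (4196 and 273).

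By signal alone, cct-8 stood at rank 31 and cct-1 at rank 145 of the 239 thresholded peaks that lay in a protein-coding promoter window. The peaks just above cct-8 were shared by chst-1, a carbohydrate sulfotransferase gene, with C41C4.9 (signal 223.5) and by set-16 with drr-2 (223.6). Those just below were at kin-14, a tyrosine kinase gene (222.9), and between rps-19, for a small ribosomal subunit protein, and hsr-9 (222.7). Around cct-1 came vps-37 (127) and zfp-3 (125.7) above, and haf-3 with F57A10.2 and then col-63, a cuticle collagen gene (both 124.9), below. This likeness is in the signal of a single list only.

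The promoter windows were searched on both strands for motifs, whose matches are descriptions of letters and not sites. The heat shock element pair GAANNTTC, bound by heat shock factor when repeated in the right spacing, was in the windows of 7 of the 8 genes, all but cct-2, and in 57.2% of all protein-coding windows. At both bound genes a match began 58 bp downstream of the combined and thresholded summit, at -385 bp for cct-8 and at -192 bp for cct-1. The replicate summits were at -443 and -481 bp for cct-8 and at -272 and -260 bp for cct-1. The equal spacing therefore holds in those lists only. Further matches began at -337 and -189 bp for cct-8 and at -623 bp for cct-1. Such a match lay within 75 bp of 8.06% of the 620 nuclear thresholded summits. The TATA box letters TATAAA were in 5 windows and in 80.0% of all windows, and in neither of the 151-base stretches at cct-8 and cct-1. The letters GGTTCGA, the core of the B box inside tRNA genes, were in the windows of cct-1, cct-2 and cct-6 and in 6.91% of all windows. They were in none of the 3 summit sequences, while 18.1% of nuclear thresholded summits had them within 75 bp.

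Genes whose products work with CCT or are folded by it, and genes of other chaperone families, were read from lists of their own. None of the 6 prefoldin genes, which deliver substrates, and none of the 5 actin genes had a thresholded summit in the window. The share of all protein-coding genes with one was 1.46%, and nothing is read from an absence in lists this short. Of 16 tubulin genes only tba-2, for an alpha tubulin, had one, at -193 bp with a signal of 119 (rank 251 in replicate 1 and 1005 in replicate 2). Combined candidates lay in the window at 2 of the 6 prefoldin, 4 of the 5 actin and 9 of the 16 tubulin genes. The share of all protein-coding genes with such a candidate was 30.4%. Both mitochondrial chaperonin genes, hsp-60 and Y22D7AL.10, shared a single peak (signal 251). Of 9 HSP70 family genes 4 were bound, of which F44E5.4 and F44E5.5 shared a peak (signal 251) and hsp-1 and hsp-3 had signals of 139 and 128. Of 29 J-domain genes, whose products stimulate HSP70, dnj-13 (signal 238) and dnj-19 (signal 144) were bound. The hsp-1, dnj-13 and dnj-19 summits, like that of cct-8, had a non-coding gene within 200 bp, and the other summits named here had none. The share of all thresholded summits with such a gene nearby was not counted. Leaving such regions out lowered the bound share of all protein-coding genes from 1.46% to 0.891%. No difference between these lists and the CCT genes was tested.

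**Figure D4:**
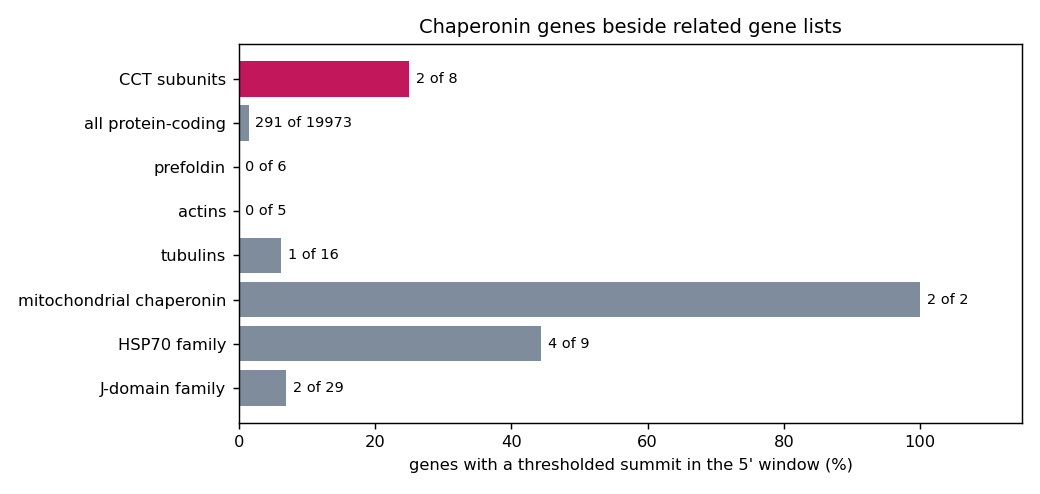
Share of genes with a thresholded summit in the 5′ window, in percent, for the CCT subunits, all nuclear protein-coding genes and 6 related lists, with counts beside the bars. The CCT bar stands for 2 of 8 genes and the bar of all genes for 1.46%. Bars of small lists rest on very few genes, and some listed genes share a peak.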

How the data were processed

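Peaks were read from the 4 region lists that the authors deposited for assembly ce11. Per the file headers and notes, 3 are candidate lists (peaks with background) of replicate 1 (30000 regions), replicate 2 (23415) and both together (28443), made against a control. The fourth is the list of 635 regions (620 nuclear) thresholded by the irreproducible discovery rate, a measure of rank consistency. These were the 635 strongest of the combined list. Replicate 1 has 2 technical libraries but a single alignment, and counts as 1 sample. Per the labels, chromatin was sonicated to 200 to 800 bp and recovered with an antibody against GFP. No peak caller, aligner or version is given in the labels or notes. The score in the authors' lists is a peak signal with no stated unit. The deposited −log10 q was 1.97 for every thresholded region. Read depth is unknown.

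No region ran past a chromosome end of WBcel235. Genes came from Ensembl release 115, and sequence from RefSeq. A summit was column 2 plus column 10, written 1-based. Ranks are among nuclear regions. Python 3.11.15 was used, and the window search was tested on simulated data. With 1 group no test was run. The 8 genes, the related lists and the motifs were chosen with earlier results of these data known. Named are all 8 members, their neighbours within 1000 bp or by a summit, bound members of the lists, and the 2 nearest peaks by signal on each side. The upstream and downstream neighbours beyond that distance were added after their values were seen. Alternatives were other windows, transcript 5′ ends, nearest genes, region overlap, stronger regions, regions away from non-coding genes, and each replicate left out.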

Additional observations from a re-analysis of the deposited data

How the results depend on the processing

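Both cct-1 and cct-8 stayed bound with windows of 500 bp or 2000 bp upstream, where the shares of all protein-coding genes were 1.08% and 2.30%. The same 2 genes were bound with any transcript's 5′ end (1.63% of all genes) and with region overlap (1.69%). They were also bound with the 620 strongest nuclear regions of a single replicate (1.51% of all genes without replicate 1 and 1.34% without replicate 2). The count was 0 with nearest 5′ ends only, 1 (cct-8) among the 310 strongest regions (0.806% of all protein-coding genes) and 1 (cct-1) without regions near non-coding genes (0.891%). Each of these keeps fewer regions or genes. The count of candidates in the combined list was 7 with the window from 2000 bp upstream to 500 bp downstream (48.3% of all genes) and 5 with region overlap (36.7%), and 3 with each single replicate list (26.9% without replicate 1 and 30.7% without replicate 2). Candidates in both replicates were found at 6 genes with that wider window (30.4% of all genes, against 14.9% with the main window). Ranked among all regions, mitochondrial ones included, cct-8 was at 86 in the combined and thresholded lists, 92 in replicate 1 and 98 in replicate 2. The 3′ count, with settings added after seeing the data, ran from 2 to 3. It was 2 without replicate 2 (1.39% of all genes) and 3 without replicate 1 (1.24%). With 200 bp on each side of the 3′ end it was 2 (0.706%), and with 1000 bp past the end 3 (1.52%). Without regions near non-coding genes it was 3 (0.836%). No paired analysis was possible because the libraries form 1 group. Without read counts, depth limits each candidate to an unknown degree.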

Other observations

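Thresholded summits in the zone from 200 bp inside to 500 bp past the 3′ end, a zone chosen after the data were seen, were also found at other chaperone genes, against 1.21% of all protein-coding genes. They were at both mitochondrial chaperonin genes, 2 of 9 HSP70 family genes and 1 of 29 J-domain genes. They lay 56 bp past hsp-60 (signal 118), 227 bp past Y22D7AL.10 (signal 136), 55 bp past hsp-1 (signal 146), 59 bp past hsp-110 (signal 182) and 121 bp past dnj-5 (signal 107). Of these, hsp-60, Y22D7AL.10 and hsp-1 also had a thresholded summit in the 5′ window, unlike cct-2, cct-6 and cct-7. Replicate ranks, neighbouring gene starts and nearby non-coding genes were not looked up for these thresholded 3′ summits. Which gene each belongs to was not tested. None of the 6 prefoldin, 5 actin and 16 tubulin genes had one in this zone, and with the share over all genes as low as it is, nothing is read from that absence.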
